A study of Mus musculus with 2 samples.

Results

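A set of 9 circadian clock genes is described here in mouse kidney cells: Dbp, Tef and Hlf, which carry clock output, and Ciart, Per1, Per2, Per3, Nr1d1 and Nr1d2, which repress the clock. They are 9 of the 15169 genes in the deposited expression table, all 9 of the listed genes were found there by symbol, and they were selected on their mean corrected counts in the control and the IRI library of these same data, whose differences had been seen before the list was made. Single-cell RNA sequencing was applied to 1 kidney library per group, both from wild-type C57BL/6 mice of 9 weeks. The control is labelled normal, and the other mouse had ischaemia-reperfusion injury (IRI, a period without blood supply followed by its return) of 1 kidney with removal of the opposite one. Both kidneys were dissociated with Liberase and DNase I. The labels give neither the hour of day at which either kidney was taken nor the time after injury, and they name no nephrectomy for the control. Hour of day, ischaemia and nephrectomy therefore cannot be told apart, and with 1 library per group no test between animals exists. Every comparison below describes these libraries, and its 95% interval covers counting error only.

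The clock is a loop of transcription. CLOCK and BMAL1 (the product of Arntl) bind E-box sequences and activate Per, Cry and Nr1d genes, whose products then repress the loop: PER with CRY proteins block CLOCK and BMAL1, and the nuclear receptors REV-ERB alpha (Nr1d1) and REV-ERB beta (Nr1d2) silence genes with REV-ERB/ROR elements, Arntl among them. Dbp, Tef and Hlf encode the PAR bZIP transcription factors, which bind D-box sequences and pass the rhythm on to metabolic and transport genes. Several of these transcripts swing widely over the day in kidney and other peripheral tissues, and Per1 also answers to glucocorticoids.

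Promoter sequences are shown because they carry the letters through which the loop reads its own members. A window of 250 bases before the start was held for 8 of the 9 genes, all but Per2, in RefSeq sequences of build GRCm38.p6, with 10 windows in all. Both strands were searched for the E-box CACGTG, its variant CACGTT, the D-box TTANGTAA and the cyclic AMP response element TGACGTCA. For the REV-ERB/ROR element the loose pattern TNGGTCA was searched, in which N is any base. The stretches of 5 windows with matches are given 5′ to 3′ on the gene's own strand, with the matched letters in capitals. TGACCAA is TNGGTCA read on the other strand, with T at the free base. It matches these loose letters only, and the bases around them were not compared with the full REV-ERB/ROR element.
Ciart, chr3:95882255-95882356, minus strand: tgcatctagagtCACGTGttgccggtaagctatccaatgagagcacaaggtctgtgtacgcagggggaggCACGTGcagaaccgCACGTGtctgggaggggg
Per1, chr11:69098771-69098800, plus strand: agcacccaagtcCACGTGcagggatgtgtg
Tef, second start, chr15:81811183-81811293, plus strand: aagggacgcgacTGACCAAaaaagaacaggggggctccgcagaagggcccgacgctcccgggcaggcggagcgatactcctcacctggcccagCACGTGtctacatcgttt
Per3, chr4:151044765-151044882, minus strand: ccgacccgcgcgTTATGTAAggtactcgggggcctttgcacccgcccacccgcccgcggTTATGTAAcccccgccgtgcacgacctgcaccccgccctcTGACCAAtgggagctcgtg
Nr1d1, chr11:98775388-98775417, minus strand: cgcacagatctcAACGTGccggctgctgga
Ciart held 3 E-boxes, Per1 held 1 in 1 of its windows, and Tef held 1 at each of its starts. At the second start a TNGGTCA match lay in the same window. Of all 32851 promoter windows of the same length, 6.02% held an E-box. Per3 held 2 D-boxes and a TNGGTCA match, and 2.06% and 9.19% of all windows held a match to these patterns. The E-box variant of Nr1d1, read as AACGTG, was in 3.85% of windows, and Hlf had the cyclic AMP response element, found in 1.55%. None of the 5 motifs was matched in the windows of Dbp and Nr1d2, which says only that these letters are not in those bases. The matches of Hlf and of the first start of Tef are not printed. The coordinates belong to GRCm38.p6 and not to mm9, the build named in the submitters' processing notes.

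The libraries held 6589 control cells with 24169073 raw unique molecular identifiers (UMIs, counted RNA molecules; median 2344 per cell) and 5170 IRI cells with 16816996 (median 1888.5), and 55 cell barcodes occurred in both. Levels are the authors' depth-corrected counts, whole numbers that are not raw counts, so a cell is called positive for a gene when its corrected count is above 0. Summed marker lists were highest in the type named for them for proximal tubule, thick ascending limb (TAL), distal tubule (DCT/CNT), intercalated cells (CD-IC), endothelium, stroma, macrophages, neutrophils, T cells, B cells and red cells. The thin limb markers were not highest in the type named tDL (their highest sum, 3.23, was in IRI Vasculature), and control tDL cells held a summed mean of 81.9 proximal tubule marker counts against 58.2 in the proximal tubule itself. Podocyte, dendritic and principal cell lists have no type named for them. Their highest sums were in control Myofibroblast (1.26), control Ccr2+ Mac (2.97) and IRI DCT/CNT (0.794). The reads' strand was not stated for the counting, and 3 of the genes share exonic bases with a gene on the opposite strand: Dbp with Sphk2, Nr1d1 with Thra and Tef with Gm17597.

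The proximal tubule, the reabsorbing segment next to the glomerulus, gave most cells: 4827 control and 3261 IRI cells of the annotated segments S1, S2 and S3. All 9 clock genes were measured there, meaning that they had at least 10 summed corrected counts, and each was positive in a smaller share of IRI than of control cells. The interval of the share ratio (IRI over control) lay below 1 for all 9, in a comparison where 24.8% of 11944 measured genes had such an interval and 13.9% had one above 1. By the log2 ratio of mean corrected counts (IRI over control, 0.05 added to each mean), 2 of 9 were at least 2-fold lower, Dbp and Tef, and 0 were at least 2-fold higher, where 0.762% and 0.41% of all measured genes were. The 9 genes had a median log2 ratio of −0.42, and all measured genes one of −0.01. IRI cells were also shallower, with a median of 1819 raw UMIs against 2738. Because the genes were listed for a difference between these libraries, these counts describe them and support nothing further.

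**Figure D1:**
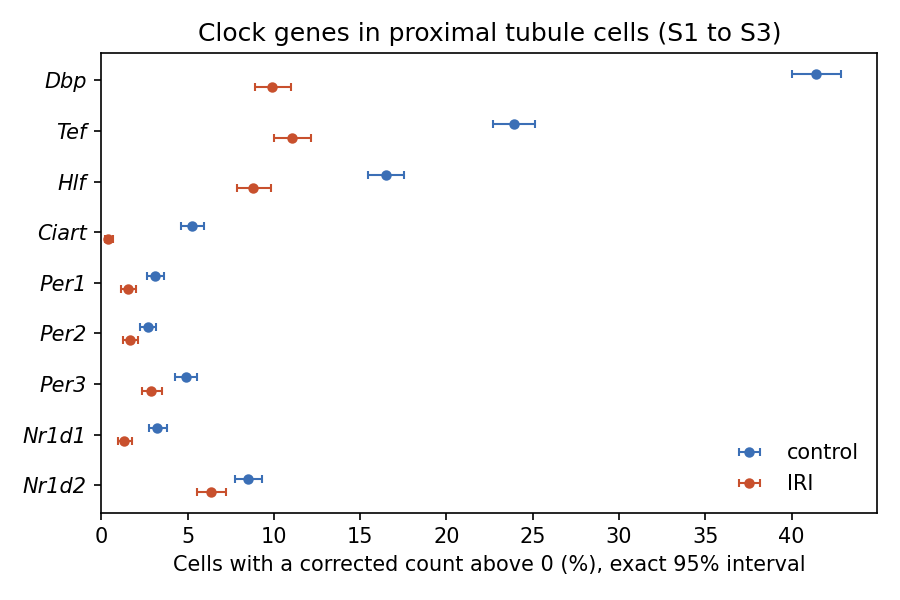
Share of proximal tubule cells (S1 to S3) with a corrected count above 0 for each clock gene, in percent, for 4827 control and 3261 IRI cells; bars are exact 95% intervals for counting error. The IRI point lies to the left of the control point for every gene, with 9.90% against 41.4% for Dbp.

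Among the output factors, Dbp, which drives daily expression of detoxifying and metabolic enzymes, was positive in 41.4% (40.0 to 42.8%) of the control cells, and the IRI share was 9.90% (8.90 to 10.98%). The share ratio was 0.239 (0.212 to 0.269), and the mean corrected count was 0.613 in control and 0.131 in IRI, a log2 ratio of −1.87. Only 12 of the 11944 measured genes had a lower log2 ratio than Dbp, which ranked 13 from the bottom. In the deposited residuals, which hold Dbp alone of the 9 genes, its mean was 0.38 in control and −0.33 in IRI cells. Sphk2, the gene on Dbp's opposite strand, was positive in more IRI cells (2.76%) than control cells (1.74%), so it went the other way.

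Tef, the PAR bZIP factor first known from the pituitary, was positive in 23.9% (22.7 to 25.1%) of proximal tubule cells in control and 11.04% (9.98 to 12.2%) in IRI. Its mean was 0.320 in control and 0.135 in IRI, with a share ratio of 0.462 (0.409 to 0.520) and a log2 ratio of −1.001, on the 2-fold limit itself. Tef did not reach that limit after a shift by the median of all genes (−0.99), with totals that leave out mitochondrial, ribosomal and haemoglobin genes (−0.88) or with 0.2 added in place of 0.05 (−0.63), and Dbp alone passed it under these settings. Hlf, the third PAR bZIP factor, was positive in 16.5% (15.5 to 17.6%) of cells in control and 8.80% (7.85 to 9.83%) in IRI. Its share ratio was 0.534 (0.465 to 0.612) and its log2 ratio −0.67, short of the 2-fold limit. Gm17597, on the opposite strand of Tef, had shares of 0.559% in control and 0.123% in IRI, a ratio of 0.219 (0.0558 to 0.629), the same direction as Tef.

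Ciart, a repressor that acts on CLOCK and BMAL1, had the lowest share ratio of the 9 genes in the proximal tubule. It was positive in 254 of 4827 control cells, 5.26% (4.65 to 5.93%), and in 13 of 3261 IRI cells, 0.399% (0.212 to 0.681%). The share ratio was 0.0758 (0.0398 to 0.132), and the mean corrected count was 11.7 times higher in control (0.0576) than in IRI (0.00491). Since these means are near the 0.05 added to them, the log2 ratio of −0.97 understates that distance, and with 0.01 added it was −2.18.

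The Period genes encode the PER proteins of the main repressor complex, and Per3 is the least required of them for rhythm. Per1 was positive in 3.13% (2.66 to 3.66%) of cells in control and 1.53% (1.14 to 2.02%) in IRI, with a share ratio of 0.490 (0.349 to 0.679). Per2 was positive in 2.69% (2.25 to 3.19%) and 1.66% (1.25 to 2.16%), a ratio of 0.615 (0.439 to 0.851). Per3 was positive in 4.89% (4.30 to 5.54%) and 2.88% (2.34 to 3.52%), a ratio of 0.590 (0.459 to 0.752). The 3 log2 ratios of means, −0.29, −0.22 and −0.34, were all short of 2-fold. With only cells of 2000 or more raw UMIs, the Per2 ratio was 0.778 with an interval of 0.543 to 1.10, which includes 1.

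Nr1d1, which encodes REV-ERB alpha, was positive in 3.25% (2.77 to 3.79%) of cells in control and 1.32% (0.956 to 1.77%) in IRI, with a share ratio of 0.405 (0.282 to 0.571). Thra, the thyroid hormone receptor gene whose exons overlap Nr1d1 on the other strand, had a ratio of 0.598 (0.458 to 0.774), the same direction as Nr1d1. The strand used in counting was not stated, and whether Thra reads entered the Nr1d1 counts was not tested. Nr1d2, which encodes REV-ERB beta, had the ratio nearest to 1 of the 9 genes: its shares were 8.49% (7.72 to 9.32%) and 6.35% (5.54 to 7.24%), a ratio of 0.747 (0.629 to 0.885). The log2 ratio of means was −0.42 for Nr1d1 and −0.23 for Nr1d2.

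Shares of positive cells varied with sequencing depth even in corrected counts, so the cells were divided into 6 ranges of raw UMIs. Dbp was positive in a smaller share of IRI cells in all 6 ranges: from 2000 to below 4000 UMIs in 18.9% of IRI against 57.2% of control cells, from 4000 to below 8000 in 10.97% against 55.2%, and from 8000 upward in 6.48% against 51.1%. Tef, Hlf and Ciart were also lower in IRI in all 6 ranges. Tef reached 27.0% of IRI and 43.9% of control cells in the deepest range, and Ciart was positive in 0 of 293 IRI cells there against 5.23% of 784 control cells. The other 5 genes each had 1 range in which the IRI share was the higher one, with overlapping intervals. For Per3 this was the deepest range (8.19% against 6.89%), and for Per1, Per2, Nr1d1 and Nr1d2 it lay below 1000 UMIs.

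**Figure D2:**
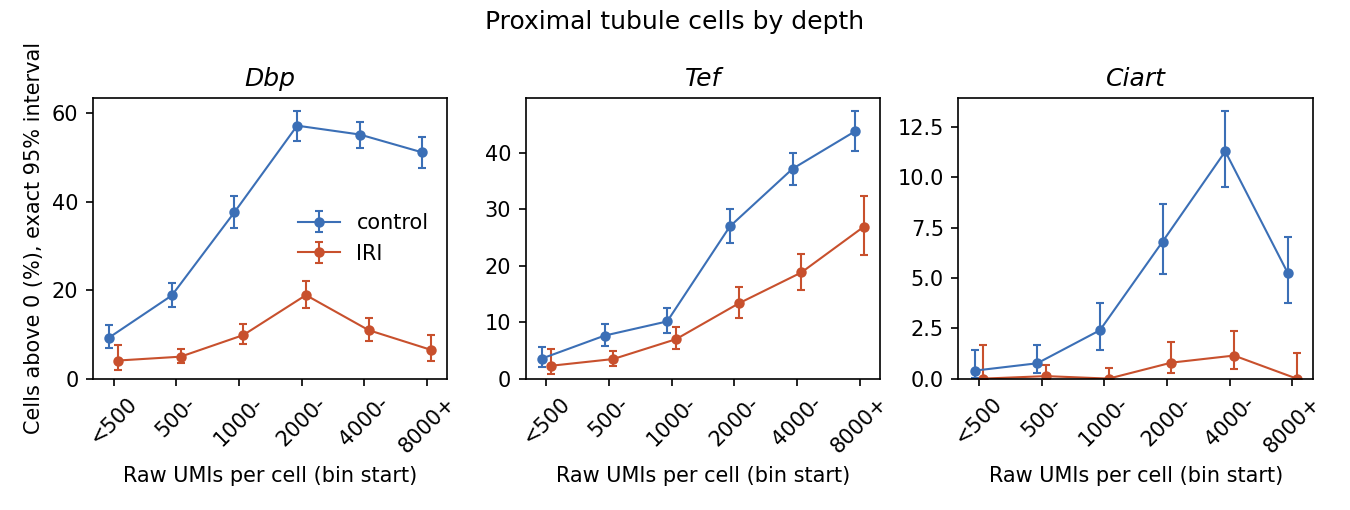
Share of proximal tubule cells positive for Dbp, Tef and Ciart, in percent, by range of raw UMIs per cell, for the control and the IRI library; bars are exact 95% intervals. The control points lie above the IRI points in each range, and the Dbp shares in the deepest range are 51.1% and 6.48%.

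The genes were also counted together within each cell. None of the 9 was positive in 35.3% (34.0 to 36.7%) of control and 67.3% (65.6 to 68.9%) of IRI proximal tubule cells. At least 2 were positive in 29.5% and 8.62%, and at least 3 in 10.6% and 2.09%. Among cells with at least 2000 raw UMIs, 15.1% of 2785 control and 50.1% of 1534 IRI cells had none, and 46.2% and 16.1% had at least 2.

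The 3 segments differed in which genes stood out. In PT-S1, the segment nearest the glomerulus (600 control and 989 IRI cells), the shares positive in control and IRI were 55.2% and 12.3% for Dbp and 13% and 0.708% for Ciart, with log2 ratios of −2.14 and −1.72, where 0.424% of all measured genes were at least 2-fold lower. In PT-S2 (2785 and 1482 cells), Dbp was the only one of the 9 past 2-fold, with 40.8% and 8.91% (log2 ratio −1.88, against 0.996% of all genes), and Tef was positive in 12.1% and 5.53%. In PT-S3, the straight end of the tubule (1442 and 790 cells), Tef had its lowest log2 ratio, −2.03, with 42.6% and 8.61% positive cells. The libraries filled different clusters of PT-S3: 742 and 455 of its 1442 control cells lay in clusters 4 and 8, and 727 of its 790 IRI cells in cluster 3. Within cluster 3 (127 control cells) the Tef log2 ratio was −1.21, and within cluster 4 (742 control and 58 IRI cells) it was −0.76. Over the whole segment, Dbp (−1.77), Ciart (−1.35) and Per3 (−1.08) were past 2-fold as well, where 2.34% of all genes were. Tef was thus positive in a larger share of control cells in S3 and S1 than in S2, whereas its IRI share was highest in S1, at 21.2%. Depth differed between segments too. Median raw UMIs in S1, S2 and S3 were 4953.5, 1495 and 4507.5 in control and 4716, 912 and 2338.5 in IRI. The part of depth in these segment differences was not tested.

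Deposited clusters within the tubule separated these genes further, though the clusters were built from these same cells and their contrasts are a description. Cluster 5 of PT-S1 is one where IRI cells were the deeper ones (median 7026 raw UMIs in 501 IRI cells, 5251 in 283 control cells). The shares positive there, control before IRI, were 24.4% and 1.20% for Ciart. Nr1d1 was positive in 11.7% and 2.40%, Per1 in 17.3% and 5.19%, Dbp in 43.1% and 6.39%, and Tef in 54.8% and 29.3%. Nr1d2 differed least there (15.5% and 11.8%, share ratio 0.757, 0.504 to 1.15). By their means, 4 of the 9 were at least 2-fold lower in IRI in cluster 5, where 1.41% of all genes were. Cluster 6, also PT-S1 (276 control and 479 IRI cells), had Dbp in 66.3% of its control cells against 18.4% but Tef in 12.7% and 12.9%, a share ratio of 1.02 (0.664 to 1.59). Over the 8 tubule clusters with 20 or more cells on both sides, the Dbp log2 ratio ran from −2.38 in cluster 5 to −0.68 in cluster 2. In cluster 2, 15.6% of 898 control and 8.33% of 72 IRI cells were positive, a share ratio of 0.535 whose interval of 0.193 to 1.19 included 1, and in cluster 4 the log2 ratio was −1.13. Control cells alone were uneven as well: Tef was positive in 74.5% of the 455 control cells of cluster 8, with a median of 8192 raw UMIs, and in 12.9% of the 147 of cluster 18, with 7236, where Dbp was positive in 68.0%.

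Across the kidney, Dbp was measured in 11 of the 13 annotated types that had 20 or more cells on both sides, and it was at least 2-fold lower in IRI in all 11. The weakest log2 ratios were those of resident macrophages (−1.004, in a type where 3.27% of all genes were at least 2-fold lower) and T Cell (−1.20, 3.37% of genes). In T Cell, 11.9% of 59 control and 3.09% of 97 IRI cells were positive, and the interval of the share ratio, 0.0435 to 1.14, included 1. In tDL the log2 ratio was −2.14, with 23.2% and 2.73% positive, in a type where 6.39% of genes were 2-fold lower. That contrast sets unlike clusters side by side, since 391 of 427 control cells were of cluster 11 (summed tubule markers 88.0) and 420 of 440 IRI cells of cluster 9 (9.04). Myofibroblast cells, which carry the stromal markers, had Dbp in 67.7% (48.6 to 83.3%) of 31 control and 14.3% (4.81 to 30.3%) of 35 IRI cells, a log2 ratio of −2.46 in a type where 19.9% of all measured genes were at least 2-fold lower. Summed podocyte markers in Myofibroblast were 1.26 in control and 0.114 in IRI, and the part of this difference in the Dbp values was not tested. Vasculature had Dbp in 45.9% of 222 control and 19.8% of 96 IRI cells (log2 ratio −1.41, 4.37% of all genes). The distal segments were alike in direction: TAL had 32.7% and 8.04% (−2.01, 2.29% of genes) and DCT/CNT 33.1% and 9.52% (−1.68, 4.78% of genes).

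In CD-IC, the acid-base regulating intercalated cells of the collecting duct, Dbp was positive in 23 of 57 control cells, 40.4% (27.6 to 54.2%), and in 0 of 55 IRI cells; a count of 0 there leaves room for 5.45%. The mean was at least 11.6-fold lower in IRI when 3 counts are assumed over the 55 cells, and 7.07% of all genes were at least 2-fold lower in that type. By share of positive control cells, types with at least 20 cells ranked from Myofibroblast through PT-S1 and Vasculature down to T Cell, macrophages, B cells and red cells, and Myofibroblast and PT-S1 had overlapping intervals. B Cell had Dbp in 1 of 27 control and 0 of 69 IRI cells (up to 4.35%), and red cells had it in 1 of 35 control cells at a median of 6829 raw UMIs. Injured PT, a type of IRI cells alone, had it in 5.19% (2.11 to 10.4%) of 135 cells at a median of 8267 raw UMIs, and neutrophils in 2.83% of 106 IRI cells at 1451.

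**Figure D3:**
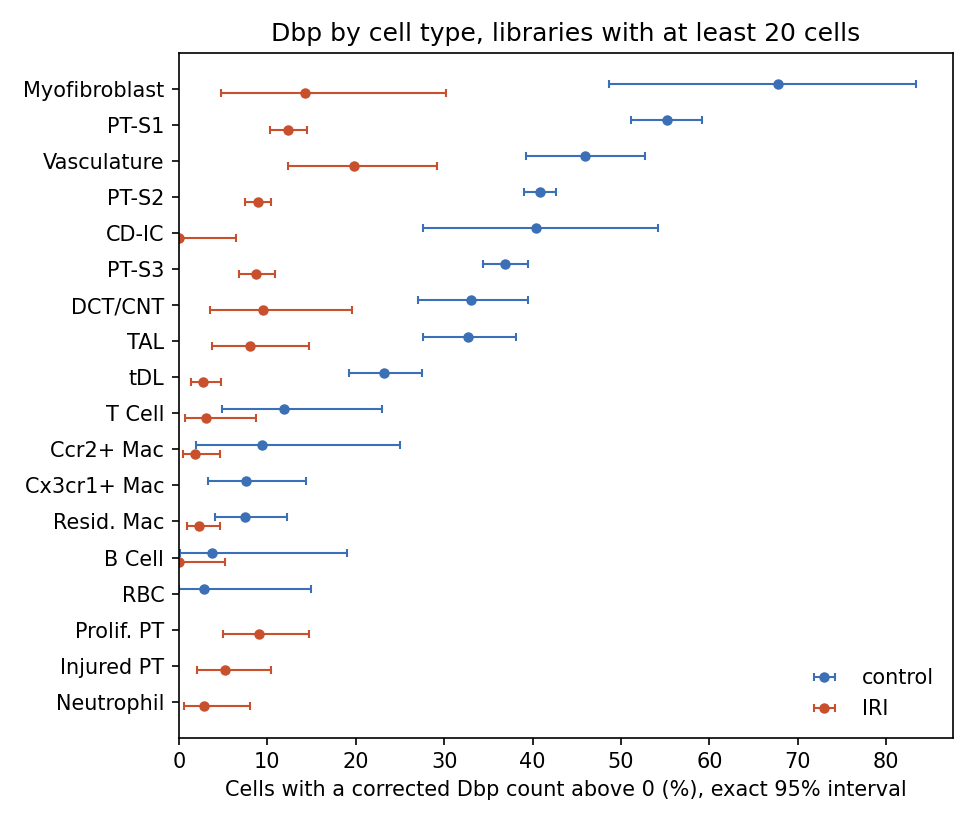
Share of cells positive for Dbp, in percent, in each annotated type and library with at least 20 cells; bars are exact 95% intervals for counting error. Control points reach 67.7% in Myofibroblast, and the highest IRI point is 19.8% in Vasculature.

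RNA released from tubule cells can enter the droplets of other cells, so the summed mean of 12 proximal tubule markers was read in each type beside these values. It was 58.2 in control and 31.8 in IRI proximal tubule cells, and in other types it was higher in control as well, for example 13.3 against 4.33 in TAL and 15.6 against 6.73 in Vasculature. When the tubule RNA these sums stand for was subtracted, 8 of the 11 types still had Dbp at least 2-fold lower in IRI. These were the 3 tubule segments, to which no subtraction applies, and TAL (−1.80), DCT/CNT (−1.37), Vasculature (−1.25), Myofibroblast (−2.44) and CD-IC. T Cell was then at −0.45, and in tDL the tubule markers stood for more Dbp than was measured in either library, so nothing is left to compare.

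Tef was measured in 10 types and at least 2-fold lower in 6: PT-S3, CD-IC (22.8% and 3.64% positive, log2 ratio −2.01), resident macrophages, tDL, TAL (17.9% and 4.46%, −1.41) and DCT/CNT (−1.02). It differed least in Vasculature, where 15.8% of control and 14.6% of IRI cells were positive, a share ratio of 0.925 (0.460 to 1.76). In the same endothelial cells the Dbp share ratio was 0.431 (0.249 to 0.708). After subtraction of tubule RNA, Tef stayed at least 2-fold lower in 2 of its 7 types outside the proximal tubule, CD-IC (−2.16) and TAL (−1.25), where 5 had been so before. DCT/CNT was then at −0.70, and in resident macrophages and tDL the tubule markers stood for at least as much Tef as was measured. Hlf was measured in 6 types, below 0 in all 6 and past 2-fold in Vasculature alone (−1.03). After subtraction it was at −0.89 in Vasculature and at −0.06 in TAL, where it had been at −0.95. In tDL the tubule markers stood for more Hlf than was measured. Whether these ratios differ between cell types was not tested.

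The repressors were scarcer than Dbp and Tef and could be measured in fewer types than these. Ciart was below 0 on the log2 scale in all 6 types where it was measured and at least 2-fold lower in 3, PT-S1, PT-S3 and DCT/CNT (−1.01). In DCT/CNT it was positive in 4.66% of 236 control and 0 of 63 IRI cells, whose limit of 4.76% does not set them apart: the share ratio's interval was 0 to 1.49, and the mean was at least 1.07-fold lower with 3 counts assumed over the IRI cells. Per1 was below 0 in all 7 types and past 2-fold in Vasculature, with 10.4% and 3.12% positive cells and a log2 ratio of −1.15 that rests on 3 positive IRI cells (share ratio 0.302, 0.0580 to 0.998). Per3 was below 0 in all 8 types and past 2-fold in PT-S3. Per2 was below 0 in 4 of 5 types, Nr1d1 in 5 of 7 and Nr1d2 in 6 of 7, and none of these was past 2-fold in any type. The exceptions were Per2 in DCT/CNT, Nr1d1 in TAL and tDL, and Nr1d2 in TAL, each with a share ratio whose interval included 1. The highest log2 ratio of any of the 9 genes in any type compared was 0.15, that of Per2 in DCT/CNT.

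**Figure D4:**
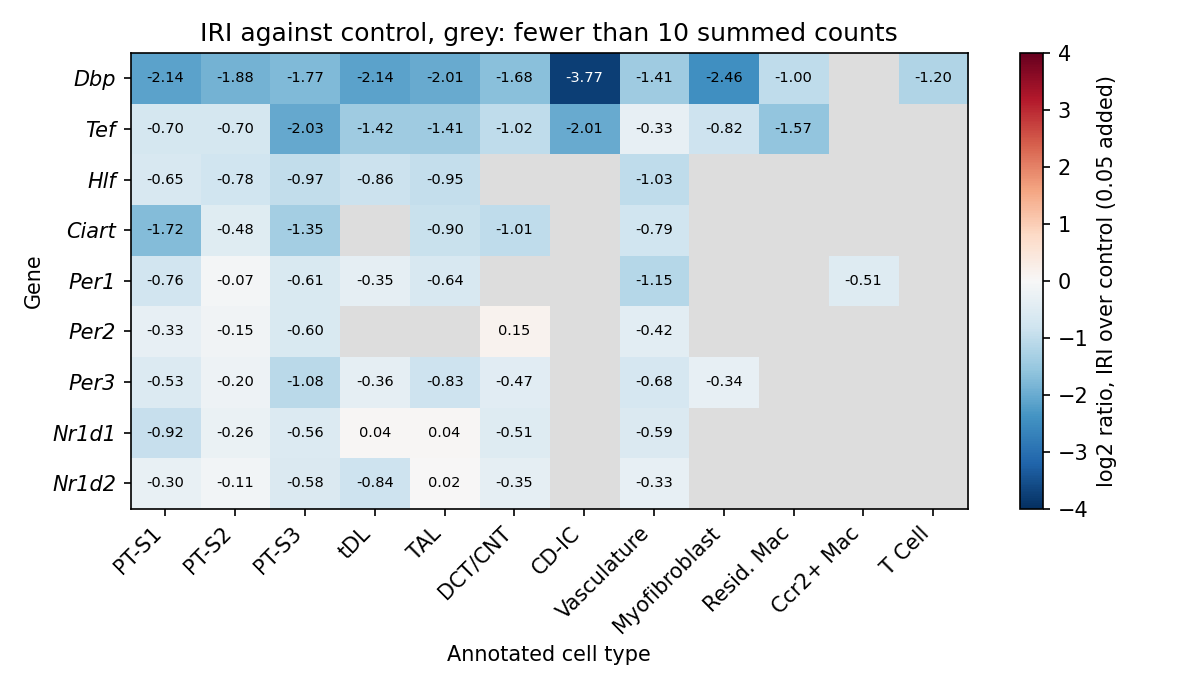
Log2 ratio of the mean corrected count, IRI over control with 0.05 added, for the 9 clock genes (rows) in 12 annotated types (columns); blue is lower in IRI, and grey marks fewer than 10 summed counts. Dbp is below −1 in each type where it is drawn, and the CD-IC value of −3.77 rests on 0 positive IRI cells and is no bound, as do those of Ciart in TAL and DCT/CNT and of Hlf in TAL.

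Macrophages of the 3 annotated types (326 control and 542 IRI cells) had few positive cells for any clock gene. The mix of types differed: control held 188 resident, 32 Ccr2+ and 106 Cx3cr1+ cells, and IRI held 306, 217 and 19. Here the IRI cells were the deeper ones, with a median of 2005 raw UMIs against 937.5. Of the 9 genes 5 were measured, and Dbp (7.67% and 2.03% positive, log2 ratio −1.02) and Tef (6.75% and 0.738%, −1.41) were at least 2-fold lower, where 2% of 7893 measured genes were lower and 2.46% higher. Per1 was positive in 5.83% of macrophages in control and 2.77% in IRI, with a share ratio of 0.475 (0.225 to 0.986). The interval lay below 1 for 3 of the 5 measured genes, Dbp, Tef and Per1, against 11.4% of all genes, and those of Hlf (log2 ratio −0.29) and Nr1d2 (−0.25) included 1. With the 3 types weighted equally, which counts the 19 Cx3cr1+ IRI cells as a full type, Nr1d2 was at 0.38. In resident macrophages alone Dbp (−1.004) and Tef (−1.57) were the 2 genes measured.

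Tubule RNA moved with the macrophage values of Dbp and Tef. The summed tubule markers were 16.4 in control and 5.25 in IRI macrophages, 28.1% and 16.5% of the sum in proximal tubule cells. That share of the tubule's own Dbp comes to 0.172 in control and 0.0216 in IRI, beside measured means of 0.107 and 0.0277. For Tef it comes to 0.0899 and 0.0222, beside 0.107 and 0.00923. After its subtraction the Dbp log2 ratio was 0.16 and no clock gene was 2-fold lower, so the Dbp values of macrophages cannot be told apart from tubule RNA. For Per1 the same share amounted to 0.00919 in control and 0.00293 in IRI, against measured means of 0.0613 and 0.0295.

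Other genes of the loop were read from lists of 45 genes, of which 44 were in the table, in the same proximal tubule cells. Of the activators, 4 of 5 were measured and 0 were past 2-fold, with 2 intervals below 1 and 1 above it (24.8% and 13.9% of all genes). Clock had equal shares within its interval (2.20% in control and 2.27% in IRI, share ratio 1.03, 0.757 to 1.40), and Arntl was positive in 0.0207% and 0.245%, a ratio of 11.8 with an interval of 1.59 to 525. Rora, whose product activates through the REV-ERB/ROR element, had a ratio of 0.610 (0.492 to 0.753). Of the other repressors, 5 of 5 were measured, 0 were past 2-fold, and they went both ways. Cry2 (0.627, 0.420 to 0.922) and Bhlhe41 (0.350, 0.175 to 0.649) had intervals below 1, and Cry1 (2.59, 1.01 to 7.13) and Bhlhe40 (1.29, 1.08 to 1.54) had intervals above 1. The median log2 ratio of these repressors was 0.04.

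None of the 6 genes for the kinases and ubiquitin ligase subunits that set PER and CRY stability had an interval that excluded 1, with Gsk3b at 0.964 (0.820 to 1.13) and Csnk1d at 1.02 (0.820 to 1.27). Of the output genes, 8 of 9 were measured, 6 had an interval below 1 and 1 above it (24.8% and 13.9% of all genes). Their median log2 ratio was 0.05 in PT-S1, −0.20 in PT-S2 and −0.39 in PT-S3. In PT-S1, 2 of 7 measured output genes had an interval below 1 and 1 above it (17.2% and 6.13% of all genes). Over the 3 segments together, Usp2, a deubiquitinase gene with a strong daily rhythm, was the 1 past 2-fold lower, where 0.762% of all genes were. It had 19.9% positive in control, 8.74% in IRI and a log2 ratio of −1.02. Por (0.648, 0.558 to 0.750) and Alas1 (0.847, 0.739 to 0.971), genes of the cytochrome P450 system and of haem synthesis that PAR bZIP factors are known to drive, were lower in share without reaching 2-fold. Cdkn1a, the p21 cell cycle inhibitor that damage also induces, had shares of 0.456% in control and 2.24% in IRI, with a ratio of 4.91 (3.01 to 8.31).

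**Figure D5:**
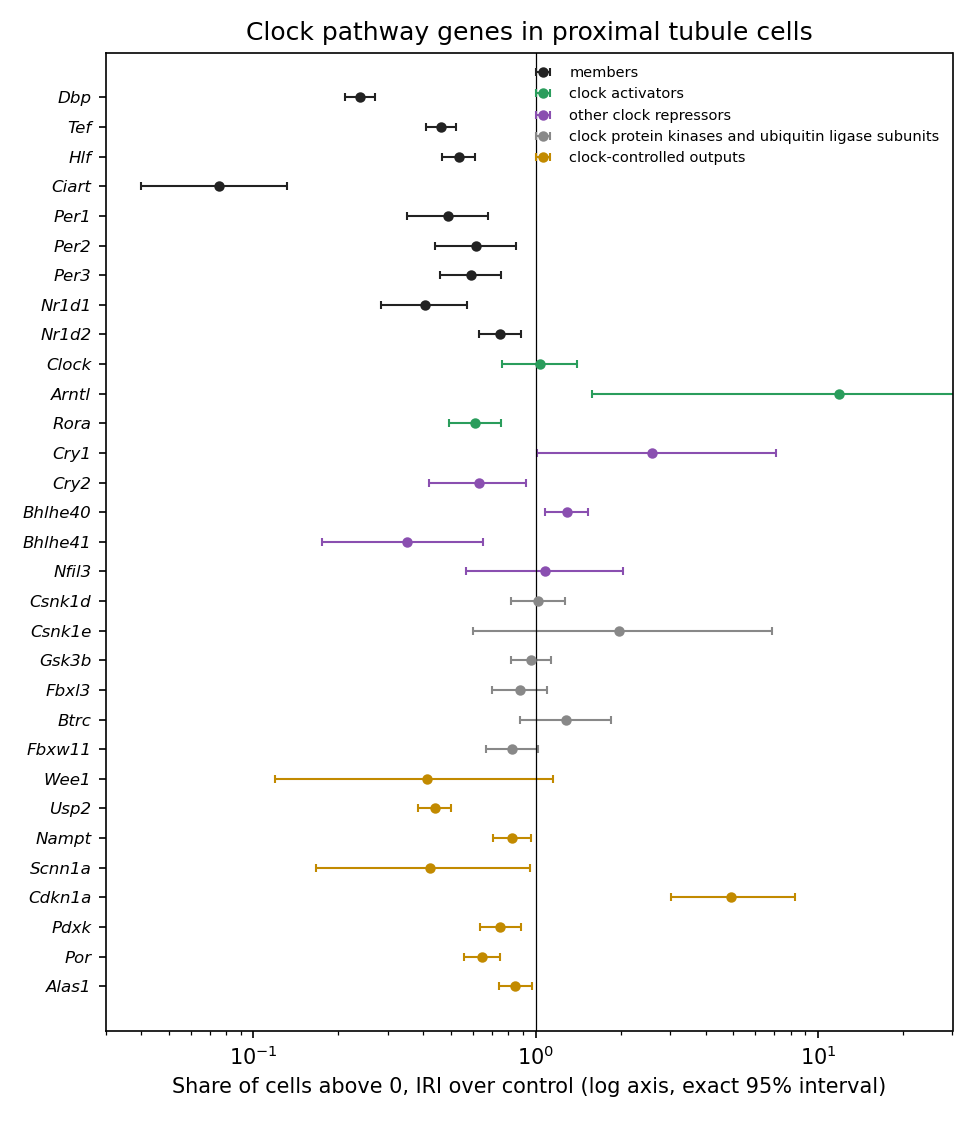
Ratio of the share of positive proximal tubule cells, IRI over control, on a log axis, for the 9 clock genes and measured genes of 4 other clock lists, coloured by list; bars are exact 95% intervals, and that of Arntl runs past the axis. The 9 clock genes lie left of 1, and Clock lies at 1.03.

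Glucocorticoid-induced genes were read beside these because Per1 and other clock genes answer to the hormone. In the proximal tubule 7 of 8 listed genes were in the table and measured, 5 had an interval below 1 and 1 above it (24.8% and 13.9% of all genes), and their median log2 ratio was −0.79. Ddit4, an inhibitor of mTORC1 signalling, was past 2-fold (14.1% of control and 1.78% of IRI cells, −1.88), Tsc22d3, which encodes GILZ, and Klf9 were both at −0.85, and Sgk1 went the other way (8.27% and 13.3%, 0.84). In macrophages, where 2% of all genes were at least 2-fold lower, 4 of 6 measured genes were, Ddit4 (−2.72), Tsc22d3 (−2.20), Fkbp5 (−1.72) and Errfi1 (−1.16). The list's median was −1.44 there and −1.13 in resident macrophages alone, where 3 of 4 measured genes were 2-fold lower (3.27% of all genes). The part of the type mix and of tubule RNA in these macrophage values was not tested. Immediate early genes, which also respond to cell dissociation, had a median of 0.27 in the proximal tubule with 6 of 12 intervals above 1 and 2 below, again against 13.9% and 24.8% of all genes. Over the 3 segments together, Fos was past 2-fold higher (1.80% and 5.31%, 1.23). By segment, the list's median was 0.17 in PT-S1 and 0.13 in PT-S2 but −0.53 in PT-S3. In PT-S3, 10 of 11 measured genes were below 0. There 7 intervals lay below 1 and 0 above it (22.2% and 9.42% of all genes). The part of hormone or handling in the clock values was not tested.

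In macrophages of the 3 types together, 3 other repressors were measured, and 2 of them had an interval above 1. Nfil3, which encodes a repressor that competes with the PAR bZIP factors for D-boxes, was positive in 1 of 326 control cells (0.307%) and in 7.56% of IRI cells, 24.7 times the share (4.19 to 997). Bhlhe40, a repressor at E-boxes, had a ratio of 3.37 (1.28 to 11.2), and 9.68% of all measured genes had an interval above 1 in macrophages. Macrophage depth was the higher one in IRI, as stated above, and its part and that of the type mix in these ratios were not tested. In resident macrophages alone Bhlhe40 was the 1 repressor measured, with a ratio of 3.69 (0.447 to 170) that includes 1.

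The genes whose levels most resembled those of Dbp were sought over the 31 combinations of type and library with at least 20 cells, among 1952 genes with a mean of at least 0.1. With the 9 clock genes left out, the 5 highest Pearson correlations of the log2 mean (0.05 added) were those of Pink1 (0.81), Mrpl22 (0.75), Klf15 (0.75), Oaz2 (0.74) and Inmt (0.74). Among the 9 genes themselves, the correlation with Dbp was highest for Tef (0.86), followed by Nr1d1 (0.78), Per3 (0.77), Per2 (0.74) and Ciart (0.73), and lowest for Per1 (0.38). The closest to Per1 were Dusp1 (0.76), Klf13 (0.75), Nfkbia (0.66), Tsc22d3 (0.65) and Ddit4 (0.64), of which Dusp1 is in the immediate early list and Tsc22d3 and Ddit4 are in the glucocorticoid list. Per1 itself had a mean over all cells of 0.0389 in control and 0.0211 in IRI, below the 0.05 added. That constant and a few counts therefore weigh heavily in its correlations, the one with Dbp included. These points share libraries and free RNA, so the correlations are descriptions and carry no p-value.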

How the data were processed

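Per the submitters' processing notes, Cell Ranger 3.0.0, the mm9 build and Seurat 3.2 were used. The authors deposited depth-corrected counts (a score, whole numbers with cell totals of 1468 to 3212, while raw UMIs run from 271 to 24680), residuals (a score) for 3000 genes, and an annotation of 18 types and 29 clusters. The deposited annotation lacked separators: its split matched corrected totals in all 11759 cells, and 3615 cells allowed several readings of raw UMIs against genes, of which the first giving 200 genes or more was taken. Raw counts were not used here. The design had allowed for raw or corrected counts; being corrected, they got no count test, no thinning and no doublet call.

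The members and lists were chosen with earlier results of these data known. From the table, means per cell, log2 ratios (0.05 added, at least 10 summed counts, types with at least 20 cells per library, 2-fold limit) and shares of cells above 0 were computed. Shares have exact Clopper-Pearson 95% intervals and share ratios exact conditional ones; a count of 0 is given a limit of 3 counts. Data were simulated for the proximal tubule comparison with 15169 genes, of which 200 with a mean of at least 0.1 were changed 2-fold. Directions were right for 100% of these 200, and intervals covered the true ratio in 96.4% of 500 draws at 1 pair of shares. Ciart, Per1, Per2, Per3, Nr1d1 and Nr1d2 had lower means, so neither genes as scarce as these nor changes below 2-fold were checked. The values of 1 gene of the activator list are not reported here. Named genes are all 9 members, list members past 2-fold or needed by a sentence, and the 5 genes most like Dbp and Per1. Alternatives were other constants, scalings, depth limits, weights and a subtraction of tubule RNA. Python 3.11.15, numpy 2.4.6, scipy 1.17.1 and pandas 2.3.3 were used.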

Additional observations from a re-analysis of the deposited data

Results flagged for a closer look

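Within the IRI against control contrast, 4 values lay above 0 on the log2 scale in one cell type while the same gene lay below 0 in others; the difference between types was not tested, since each type has 1 library per group. Per2 in DCT/CNT had a log2 ratio of 0.15, with 3.39% of 236 control and 4.76% of 63 IRI cells positive. Nr1d1 had a log2 ratio of 0.040 in TAL (2.47% of control and 2.68% of IRI cells) and of 0.036 in tDL (1.41% and 1.59%). Nr1d2 in TAL had a log2 ratio of 0.016, while its share of positive cells was lower in IRI (8.04%) than in control (10.5%).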

How the results depend on the processing

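In the proximal tubule 2 clock genes were at least 2-fold lower as reported, where 0.762% of all measured genes were. The count was 1 with 0.2 added (0.209% of all genes), after a shift by the median of all genes (0.72%) and with totals without mitochondrial, ribosomal and haemoglobin genes (0.527%). It was also 1 with the mean of proportions (0.678%) and with raw UMI ranges weighted equally (0.653%, chosen after seeing the data). It was 3 with 0.01 added (2.07%), with 2000 or more raw UMIs (0.948%) and with segments weighted equally (0.72%). At a 1.5-fold limit it was 4 (3.26%). With clusters weighted equally (also chosen later, 0.28% of all genes) the 2 were Dbp and Ciart (−1.09), and Tef was at −0.83. In macrophages the count was also 2 (2% of all genes). It was 0 with 0.2 added (0.443%) or tubule RNA subtracted (0.988%), and 1 after the median shift (1.67%). Among cells of 2000 or more raw UMIs, in which 3 genes were measured, it was 1 (5.31%). The Hlf share ratio in the proximal tubule was 0.623 with that depth limit. With tubule RNA subtracted, the macrophage Dbp log2 ratio of 0.16 rests on a control value set to 0 and is no reversal. The Nr1d2 log2 ratio turned to 0.38 with the macrophage types weighted equally (chosen later). That weighting counts 19 Cx3cr1+ IRI cells, fewer than the 20 asked of a type elsewhere, as a full type. Over the alternatives that can move a log2 ratio, all 90 values in the proximal tubule were below 0, and 36 of 40 in macrophages were. Among the macrophage values that were not, those of Dbp, Hlf and Nr1d2 after subtraction rest on values set to 0. A changed constant cannot change a sign, and the genes were listed for a difference between these libraries. These counts are therefore a description and add no support. Subtraction does not apply to the tubule itself. No paired analysis was possible because each group has 1 library, and for the same reason no replicate could be left out. Low counts left Per2 measured in 5 types and Hlf and Ciart in 6, against 11 for Dbp.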
